A study of Mus musculus with 12 samples.

Results

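The 10 mRNA described here encode AKT kinases, components of the mTOR complexes and proteins that restrain or feed back on them: Akt1, Akt2, Rictor, Rptor, Tsc1, Tsc2, Sesn1, Sesn3, Irs2 and Trib2. They were taken by gene symbol from a deposited table of 13283 genes, and all 10 were present. RNA sequencing measured cytotoxic T lymphocytes (CTL), the effector form of CD8 T cells, grown from T cells of female mice aged 11 to 27 weeks. The table gives FPKM, fragments per kilobase of exon, scaled to library size, so levels are per length and can be compared between genes. WT CTL came from GzmB cre+ mice, and FOXO1-GFP KO CTL from FOXO1-GFPfl/fl Gzmb cre+ mice, in which the Cre, driven by the granzyme B promoter, removes a floxed Foxo1 exon tagged with EGFP. Both genotypes thus carried the Cre, and FOXO1 was lost only as cells came to express granzyme B. Each genotype was kept for 24 h with vehicle (DMSO; the groups WT and FOXO1-GFP KO) or with 10 µM IC87114, an inhibitor of p110δ, a catalytic subunit of PI3K (PI3Kdi; groups WT+PI3Kdi and FOXO1-GFP KO+PI3Kdi). T cells had first been activated for 48 h with antibodies to CD3 and CD28, then washed. They were plated with vehicle or PI3Kdi on day 6. All cultures held IL-2 and IL-12. Live CD8+ cells were sorted, and FOXO1-GFP KO cells were also sorted as GFP-, so genotype and this gate cannot be told apart. The 4 groups held 3 biological replicates each, numbered in the labels. Vehicle and PI3Kdi libraries of the same number were treated as pairs within a genotype. Whether such pairs share a mouse is not given.

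PI3K makes the membrane lipid that recruits and activates AKT. Active AKT phosphorylates FOXO1, which holds it out of the nucleus, and phosphorylates the TSC complex (TSC1 and TSC2), which releases the mTORC1 complex that is built on Raptor (Rptor). The mTORC2 complex, built on Rictor, in turn phosphorylates AKT. For CD8 T cells, however, the study states from its earlier work that mTORC1 activity does not need p110δ. Sestrins restrain mTORC1 through amino acid sensing, IRS2 couples growth factor and cytokine receptors to PI3K, and FOXO factors are known in other cells to activate genes of both kinds. A loop of this type lets a cell with low PI3K activity raise mRNA for parts of the same pathway.

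Irs2, Trib2 and Sesn1 were the mRNA called in any comparison, and their promoter sequences are shown to set beside those results. Each window runs from 250 bases before to 50 bases after a RefSeq transcript start (GRCm38.p6). Capitals mark the forkhead core GTAAACA, the letters FOXO factors are known to bind, or the insulin response element core CAAAACA, read on either strand. The insulin response element was searched only after the windows had been read. The genes lie at chr8:10984681-11008458 (Irs2, minus strand), chr12:15791727-15816922 (Trib2, minus strand) and chr10:41809935-41908424 (Sesn1, plus strand), all protein-coding. Sesn1 has 2 such windows, and the one with a match is printed. The printed Sesn1 window spans chr10:41810324-41810623 on the plus strand, that of Irs2 chr8:11008880-11009179 on the minus strand, and that of Trib2 chr12:15816736-15817035 on the minus strand.
Sesn1: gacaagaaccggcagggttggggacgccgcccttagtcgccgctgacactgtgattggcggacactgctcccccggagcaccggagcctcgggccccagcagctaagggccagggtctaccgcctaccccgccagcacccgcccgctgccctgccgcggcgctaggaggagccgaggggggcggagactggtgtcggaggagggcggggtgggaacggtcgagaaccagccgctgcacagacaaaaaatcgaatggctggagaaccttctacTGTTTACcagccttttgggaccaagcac
Irs2: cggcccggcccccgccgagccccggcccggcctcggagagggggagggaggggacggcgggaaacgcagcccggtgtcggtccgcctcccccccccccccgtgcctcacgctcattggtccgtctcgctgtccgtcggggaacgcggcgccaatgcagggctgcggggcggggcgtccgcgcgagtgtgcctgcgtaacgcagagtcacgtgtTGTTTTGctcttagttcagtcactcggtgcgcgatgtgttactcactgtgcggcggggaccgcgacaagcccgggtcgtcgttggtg
Trib2: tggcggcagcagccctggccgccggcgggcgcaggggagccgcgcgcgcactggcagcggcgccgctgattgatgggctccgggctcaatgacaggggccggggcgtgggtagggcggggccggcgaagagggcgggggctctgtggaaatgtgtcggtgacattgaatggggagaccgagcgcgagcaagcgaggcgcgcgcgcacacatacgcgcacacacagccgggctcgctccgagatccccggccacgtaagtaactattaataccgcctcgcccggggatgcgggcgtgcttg
In the printed Sesn1 window the forkhead core began at base 23 of the transcript, counting its first base as 1. The other Sesn1 window, at chr10:41887189-41887488 on the plus strand, held neither string. The Irs2 window held no forkhead core, but an insulin response element core began at position -37. The Trib2 window held neither string. Over the 15 windows of the 10 genes, 2 held the forkhead core (13.33%), the other being an upstream Akt1 window, against 309 of 12228 windows (2.53%) for all genes of the table. The insulin response element core was in 1 of the 15 (6.67%) and in 539 of the 12228 (4.41%). These matches describe the letters and not binding.

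The libraries held 12.8 to 47.9 M reads, a depth worked out from the steps between low FPKM. Foxo1 mRNA was 5.77 to 10.46 FPKM in the 6 WT libraries and 0.58 to 1.75 FPKM in the 6 FOXO1-GFP KO libraries, matching the genotype labels. All 8 CD8 T cell markers were present, at a summed 8687 to 12638 FPKM. Most of that was Gzmb, at 7317 to 10955 FPKM, and no other marker of the 8 exceeded 541.74 FPKM. Of 6 B cell markers 3 were in the table, and Cd79a and Ms4a1 were among those that were not. The summed level of the 3 differed between genotypes, from 11.36 to 15.55 FPKM for WT vehicle, 15.29 to 19.49 for WT+PI3Kdi, 4.48 to 6.88 for FOXO1-GFP KO vehicle and 4.31 to 6.36 for FOXO1-GFP KO+PI3Kdi. Myeloid markers (2 of 5 in the table) summed to at most 0.5 FPKM and CD4 T cell markers (2 of 3) to at most 1.79 FPKM.

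Levels of the 10 mRNA spanned more than 100-fold. Over the 12 libraries the mean was 84.2 FPKM for Akt1, 28.6 for Akt2, 14.4 for Sesn3, 7.84 for Sesn1, 4.72 for Tsc2, 3.88 for Rptor, 2.64 for Rictor, 2.03 for Tsc1, 0.518 for Irs2 and 0.500 for Trib2. This order held in 12 of 12 libraries between each neighbouring pair except the last, since Irs2 exceeded Trib2 in only 4 of 12. Akt1 stood above 95.6% of all genes. Irs2 and Trib2 rested on few reads, about 15 to 168 and 10 to 146 per library, and their FPKM are correspondingly coarse.

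**Figure D1:**
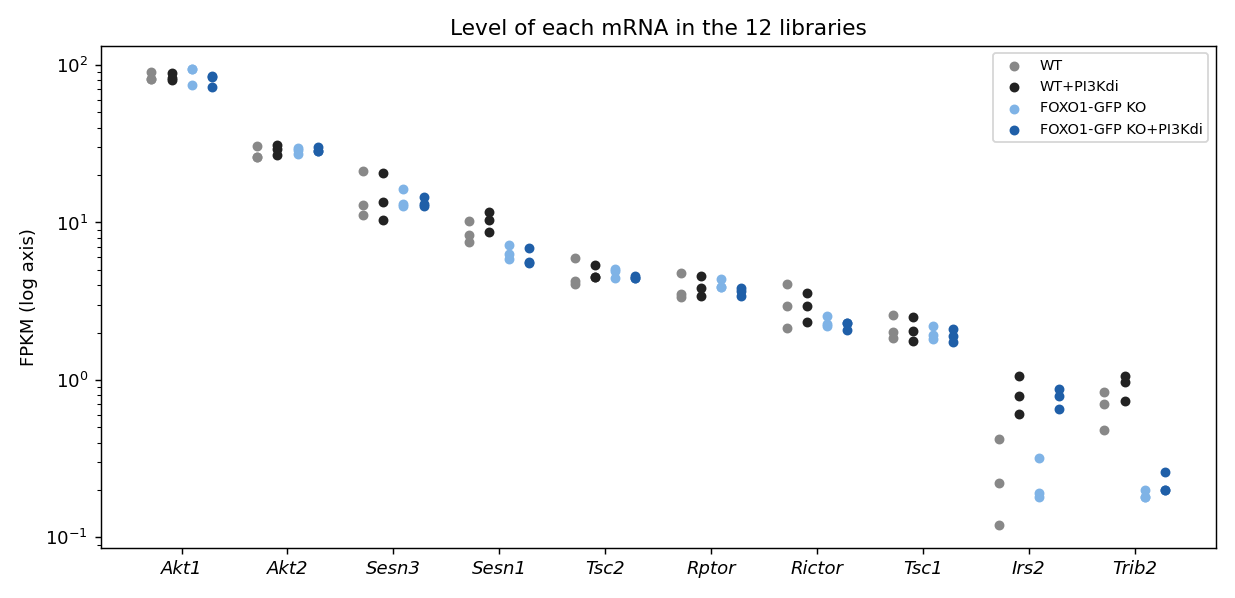
FPKM (log axis) of each mRNA, ordered by its mean; each point is a library and colours mark the 4 groups. Irs2 lies higher in both PI3Kdi groups, and Trib2 and, by a narrower gap, Sesn1 lie lower in both FOXO1-GFP KO groups than in both WT groups.

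Fold changes were computed from log2(FPKM + 0.1), so those of low mRNA are understated. An mRNA was called at a limma adjusted p under 0.05 over all genes with a fold change over 1.5. Over genes averaging 1 FPKM or more, vehicle and PI3Kdi libraries of the same replicate number deviated together within a genotype. Values with a replicate block within genotype therefore stand beside the plain fit wherever the call changes. The block applies the same correlation to all genes. In WT, Irs2 deviated from its group mean by 0.65, -0.05 and -0.59 with vehicle but by -0.34, 0.36 and -0.02 with PI3Kdi. Trib2 deviated there by 0.31, 0.08 and -0.39 with vehicle and by -0.28, 0.20 and 0.08 with PI3Kdi. Blocked p-values for PI3Kdi in WT thus assume a pairing that Irs2 and Trib2 did not show. The comparisons of PI3Kdi and of genotype share libraries and are not independent of each other.

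Akt1 and Akt2 encode AKT kinases, which act downstream of PI3K. Akt1 was 90.28, 81.70 and 81.10 FPKM in the vehicle libraries of WT, replicates 1 to 3, and 88.79, 80.06 and 82.22 with PI3Kdi. The FOXO1-GFP KO vehicle libraries had 94.75, 94.13 and 74.46 FPKM, and 84.57, 85.75 and 72.38 with PI3Kdi. The 4 groups overlapped. Akt2 was 30.81, 25.99 and 26.14 FPKM in WT vehicle libraries, 31.13, 26.95 and 29.29 in those of WT+PI3Kdi, 29.07, 29.69 and 27.34 for FOXO1-GFP KO vehicle, and 28.38, 30.10 and 28.30 for FOXO1-GFP KO+PI3Kdi. These groups overlapped too. Akt1 exceeded Akt2 in 12 of 12 libraries.

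Rptor and Rictor mark mTORC1 and mTORC2. Rptor was 4.76, 3.51 and 3.37 FPKM in WT vehicle libraries and 4.58, 3.43 and 3.82 in those of WT+PI3Kdi. It was 3.89, 4.37 and 3.90 FPKM for FOXO1-GFP KO vehicle and 3.43, 3.84 and 3.66 for FOXO1-GFP KO+PI3Kdi. The last pair of groups did not overlap, but the log2 fold change was -0.15 (SE 0.156, adjusted p = 0.933). Rictor was 4.09, 2.93 and 2.13 FPKM in WT vehicle libraries, 3.55, 2.93 and 2.34 in those of WT+PI3Kdi, 2.55, 2.26 and 2.19 for FOXO1-GFP KO vehicle, and 2.30, 2.29 and 2.08 for FOXO1-GFP KO+PI3Kdi. With PI3Kdi, the highest FOXO1-GFP KO library was just under the lowest of WT, and the genotype difference was -0.37 (95% confidence interval -0.85 to 0.11, adjusted p = 0.653). WT replicate 1 was the highest of the 12 libraries for both mRNA.

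Tsc1 and Tsc2 encode the complex that switches off the mTORC1 activator RHEB. Tsc1 was 2.57, 2.01 and 1.84 FPKM in WT vehicle libraries, 2.50, 1.77 and 2.03 in those of WT+PI3Kdi, 1.92, 2.19 and 1.81 for FOXO1-GFP KO vehicle, and 1.73, 2.11 and 1.89 for FOXO1-GFP KO+PI3Kdi. Tsc2 was 5.94, 4.26 and 4.07 FPKM in WT vehicle libraries, 5.40, 4.49 and 4.53 in those of WT+PI3Kdi, 4.95, 5.04 and 4.44 for FOXO1-GFP KO vehicle, and 4.45, 4.47 and 4.59 for FOXO1-GFP KO+PI3Kdi. Neither mRNA separated any groups. Tsc2 shares 693 exon bases (7.2% of its exons) with Pkd1 on the opposite strand, and the counting strand is not stated, so some of its reads are uncertain.

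Sestrins restrain mTORC1 when amino acids are scarce. Sesn3 was 21.24, 11.23 and 12.89 FPKM in WT vehicle libraries, 20.75, 10.40 and 13.42 in those of WT+PI3Kdi, 12.65, 16.27 and 13.17 for FOXO1-GFP KO vehicle, and 12.71, 14.41 and 13.16 for FOXO1-GFP KO+PI3Kdi. The groups overlapped, and WT replicate 1 was high with and without PI3Kdi. Sesn1 behaved differently. It was 10.18, 7.47 and 8.31 FPKM in WT vehicle libraries and 11.58, 8.66 and 10.41 in those of WT+PI3Kdi. The FOXO1-GFP KO vehicle libraries had 6.33, 7.24 and 5.88 FPKM, and 5.54, 6.85 and 5.58 with PI3Kdi. No FOXO1-GFP KO library reached the level of any of the 6 WT libraries, and the gap was widest with PI3Kdi. In the presence of PI3Kdi, Sesn1 was lower in FOXO1-GFP KO, at 5.99 ± 0.745 FPKM (SD, n = 3) against 10.2 ± 1.47 (SD, n = 3) in WT. The log2 fold change was -0.76 (95% confidence interval -1.10 to -0.42, limma adjusted p = 0.0352). Without PI3Kdi it was -0.40 (SE 0.155, adjusted p = 0.563), below the threshold. PI3Kdi moved Sesn1 by 0.24 in WT (limma adjusted p = 0.0558 with the block) and by -0.11 in FOXO1-GFP KO, neither of them called. In the plain fit the call was lost, at adjusted p of 0.0535 to 0.137, without WT replicate 3, WT+PI3Kdi replicates 1 or 3, FOXO1-GFP KO replicate 1, or FOXO1-GFP KO+PI3Kdi replicates 1 or 3. With the block it held (adjusted p = 0.0215) but was lost, at adjusted p of 0.0517 to 0.0720, without WT+PI3Kdi replicate 3 or FOXO1-GFP KO+PI3Kdi replicates 1 or 3. The summed B cell markers differed in the same direction between genotypes as Sesn1, and their part in it was not tested. Sesn2, a sestrin outside the 10, averaged 40.55 FPKM in WT and 30.58 in FOXO1-GFP KO with vehicle. Its genotype difference was -0.43 without PI3Kdi and -0.40 with it (limma adjusted p = 0.697 and 0.502), not called.

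Irs2 encodes insulin receptor substrate 2, an adaptor upstream of PI3K. Once replicates were blocked it rose with PI3Kdi in both genotypes, the only one of the 10 mRNA to be called for PI3Kdi in that fit. Irs2 was 0.42, 0.22 and 0.12 FPKM in WT vehicle libraries and 0.61, 1.06 and 0.79 in those of WT+PI3Kdi. The FOXO1-GFP KO vehicle libraries had 0.32, 0.19 and 0.18 FPKM, and 0.87, 0.79 and 0.65 with PI3Kdi. Vehicle and PI3Kdi libraries did not overlap in either genotype, and all 6 pairs moved upward. The group mean went from 0.253 ± 0.153 to 0.820 ± 0.226 FPKM in WT and from 0.230 ± 0.0781 to 0.770 ± 0.111 FPKM in FOXO1-GFP KO (SD, n = 3 each), ratios of 3.24 and 3.35. In WT the log2 fold change was 1.44 (SE 0.306, limma adjusted p = 0.147), which passed with the block (SE 0.234, adjusted p = 0.00334). That blocked WT value assumes a pairing that the WT libraries did not show for Irs2. The FOXO1-GFP KO response was 1.42 (SE 0.306, adjusted p = 0.273), which also passed with the block (adjusted p = 0.00455). With the block, Irs2 stayed called in both genotypes in all 12 fits that left out 1 library. The WT change was smallest in replicate 1, at 0.45, against 1.86 and 2.02 in replicates 2 and 3, and it was 1.89 with the block and without the WT library of replicate 1. The difference of the responses between genotypes was -0.03 (95% confidence interval -0.97 to 0.92, or -0.75 to 0.69 with the block), so neither a larger nor a smaller response in FOXO1-GFP KO was detectable within those bounds. Between genotypes Irs2 differed by -0.03 without and -0.06 with PI3Kdi. An antisense transcript overlaps 162 of its exon bases (2.56%) and is not in the table.

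Trib2 encodes a pseudokinase of the Tribbles family, known in other cells as a repressor of FOXO factors. Its mRNA separated by genotype. It was 0.84, 0.70 and 0.48 FPKM in WT vehicle libraries, 0.73, 1.06 and 0.97 in those of WT+PI3Kdi, 0.18, 0.20 and 0.18 for FOXO1-GFP KO vehicle, and 0.26, 0.20 and 0.20 for FOXO1-GFP KO+PI3Kdi. Every FOXO1-GFP KO library lay under every WT library. Without PI3Kdi the mean was 0.187 ± 0.0115 FPKM in FOXO1-GFP KO against 0.673 ± 0.181 in WT (SD, n = 3 each), so WT was 3.61-fold higher. With PI3Kdi it was 0.22 ± 0.0346 against 0.920 ± 0.171 FPKM, 4.18-fold higher in WT. The log2 fold change without PI3Kdi was -1.40 (SE 0.205, limma adjusted p = 0.0148), which was not called with the block (SE 0.327, adjusted p = 0.170). With PI3Kdi it was -1.66 (adjusted p = 0.00237), called also with the block (adjusted p = 0.0305). In the plain fit the call without PI3Kdi was lost, at adjusted p of 0.0601 to 0.0828, without WT replicates 1 or 2 or any of the FOXO1-GFP KO replicates, whereas the call with PI3Kdi held in all 12 fits. With the block the latter held in 3 of 12 fits, those without WT replicates 1 or 3 or WT+PI3Kdi replicate 1, and in the other 9 the adjusted p was 0.0504 to 0.0929. PI3Kdi moved Trib2 by 0.41 in WT (adjusted p = 1; 0.143 with the block) and by 0.15 in FOXO1-GFP KO. These groups overlapped, and the responses differed by -0.26 (95% confidence interval -0.89 to 0.38). The WT pairs ran from -0.18 to 0.88 on the log2 scale. Without the WT or the WT+PI3Kdi library of replicate 1, the blocked fit called Trib2 higher with PI3Kdi in WT, at 0.67 in both fits (adjusted p = 0.0281 and 0.0289), so that call rests on which libraries are used. B cell markers, also lower in FOXO1-GFP KO, moved with Trib2 and their part in it was not tested. In a bulk sample, fewer cells with an mRNA and less of it per cell cannot be told apart.

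**Figure D2:**
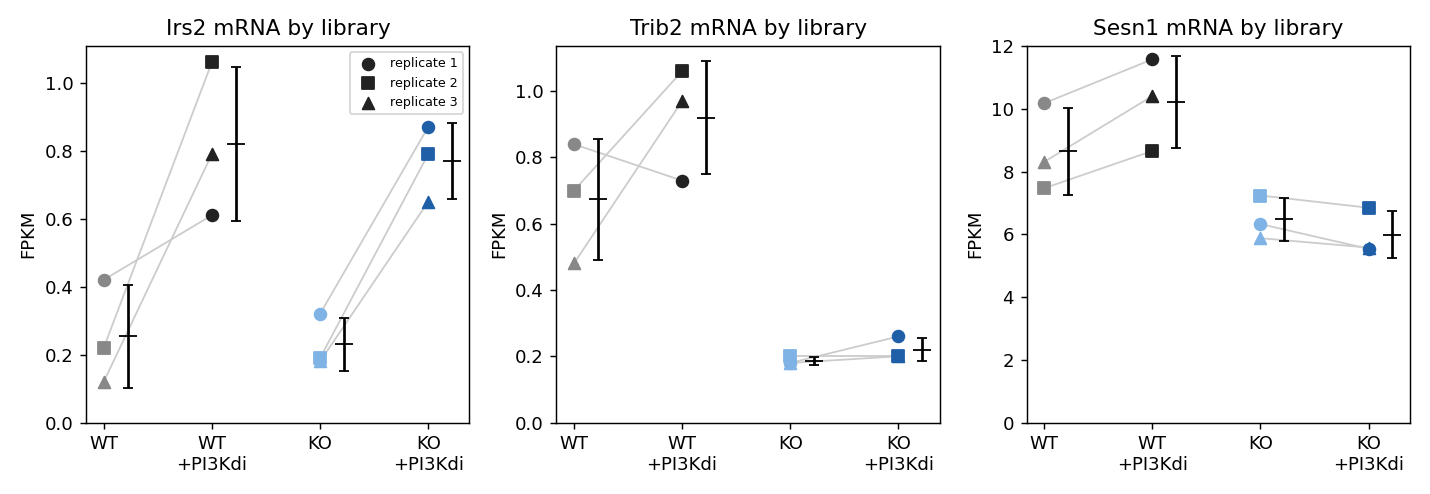
FPKM of Irs2, Trib2 and Sesn1 in each library (KO, FOXO1-GFP KO); lines join equal replicate numbers within a genotype and black bars show the mean and SD of 3. Irs2 rises in all 6 pairs, Trib2 lies at 0.18 to 0.26 FPKM in FOXO1-GFP KO against 0.48 to 1.06 in WT, and Sesn1 goes up in the 3 WT pairs and down in the 3 FOXO1-GFP KO pairs.

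Over the 10 mRNA, PI3Kdi called 0 in WT (background 0.0979% of all genes), with 1 at an unadjusted p under 0.05 against 683 of all genes. With the block it called 1, Irs2, where the background was 2.57%. In FOXO1-GFP KO it called 0 (background 0.0452%), with 1 at an unadjusted p under 0.05 against 687 of all genes. With the block it called 1, again Irs2 (background 2.79%). In the blocked fit, 3 of the 10 in WT and 2 in FOXO1-GFP KO had an unadjusted limma p under 0.05. The share over all genes was not counted in that fit, so no such count with the block is read as an excess. Between genotypes without PI3Kdi, 1 was called (background 0.331%), or 0 with the block (background 0.233%). In either fit 2 of the 10 had an unadjusted p under 0.05, against 865 of all genes in the plain fit. With PI3Kdi, 2 were called in either fit (background 1.45%, or 1.18% with the block), both lower in FOXO1-GFP KO. No difference of responses was called (background 0%, or 0.0226% with the block), and 0 of the 10, or 1 with the block, had an unadjusted p under 0.05, against 200 of all genes in the plain fit. Voom on estimated reads with the block called 1 in each PI3Kdi comparison (background 2.68% in WT and 3.37% in FOXO1-GFP KO) and 0 differences of responses (background 0.0452%). Groups did not overlap for 1 of 10 mRNA for PI3Kdi in WT (10.2% of all genes), 2 in FOXO1-GFP KO (10.1%), 2 for genotype without PI3Kdi (10.3%) and 3 with it (14.8%).

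The remaining 7 mRNA, Akt1, Akt2, Rictor, Rptor, Tsc1, Tsc2 and Sesn3, were called in none of the comparisons, with or without the block. With the block, their PI3Kdi log2 fold changes were -0.03 to 0.08 in WT, with 95% confidence bounds from -0.25 to 0.20, and -0.15 to 0.01 in FOXO1-GFP KO, with bounds from -0.31 to 0.17. Changes over 1.5-fold lay outside these blocked intervals, but not outside all intervals of the plain fit. There the bounds ran from -0.60 to 0.54 in WT and from -0.63 to 0.51 in FOXO1-GFP KO. For genotype the blocked bounds were wider, from -0.77 to 0.41 without PI3Kdi and from -0.81 to 0.36 with it. A genotype change over 1.5-fold was thus not detectable for every mRNA. The median log2 fold change of the 10 with PI3Kdi was 0.03 for WT and -0.06 for FOXO1-GFP KO, beside -0.04 and -0.02 for all genes. For genotype it was -0.05 without and -0.10 with PI3Kdi, beside -0.01 and 0.01.

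**Figure D3:**
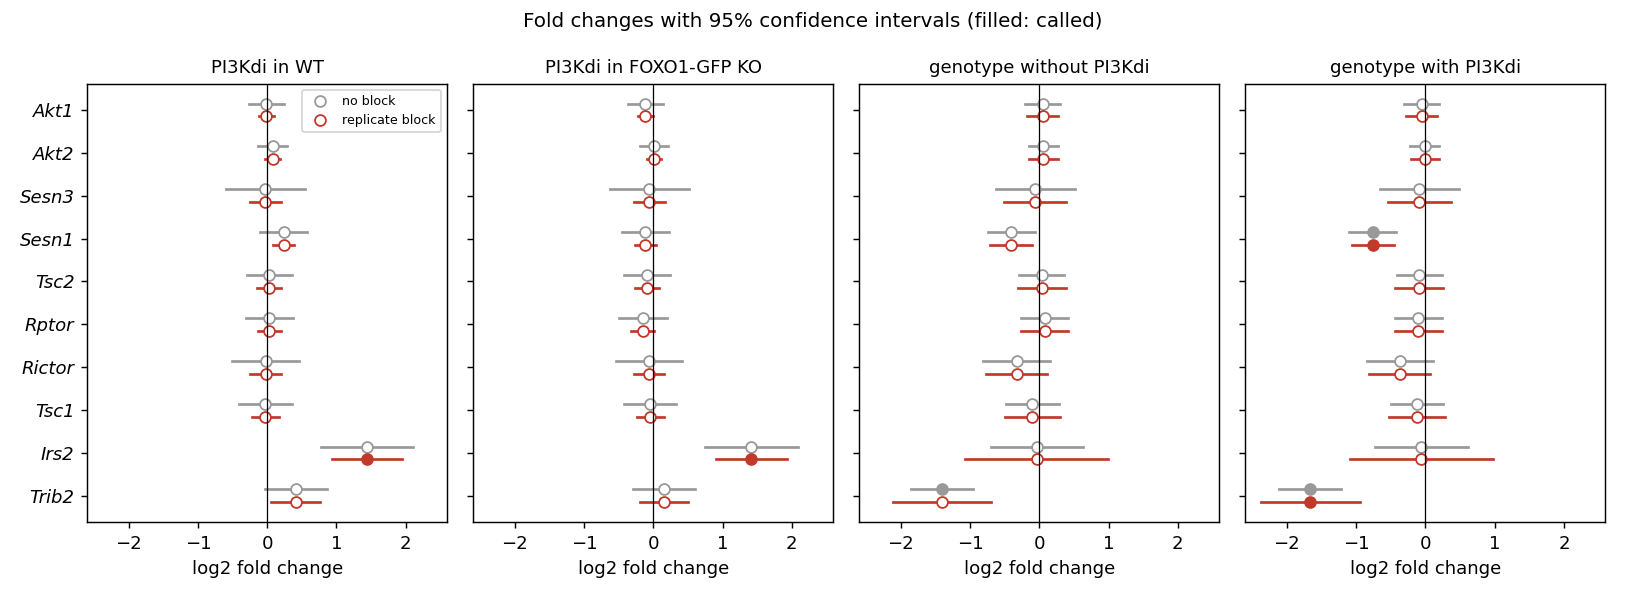
Log2 fold changes with 95% confidence intervals for each mRNA in the 4 comparisons, in the plain fit (grey) and with the replicate block within genotype (red); filled points were called. Irs2 is filled for PI3Kdi only with the block, Trib2 for genotype without PI3Kdi only in the plain fit, and Trib2 and Sesn1 for genotype with PI3Kdi in both.

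Within a replicate number, the 7 uncalled mRNA moved by at most 0.20 on the log2 scale in either direction with PI3Kdi. WT replicate 1 was the highest of the 3 WT vehicle libraries for all 10 mRNA, with a median deviation from the group mean of 0.31. The median deviation of the 840 genes with over 10000 exon bases was also 0.31 in that library, against -0.01 over all genes averaging 1 FPKM or more. Rictor, Rptor, Tsc1 and Sesn3 have exons of that length, and the part of length in their spread was not tested. Removing each library's trend with exon length left 2 called for genotype with PI3Kdi and, with the block, Irs2 called in both genotypes.

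**Figure D4:**
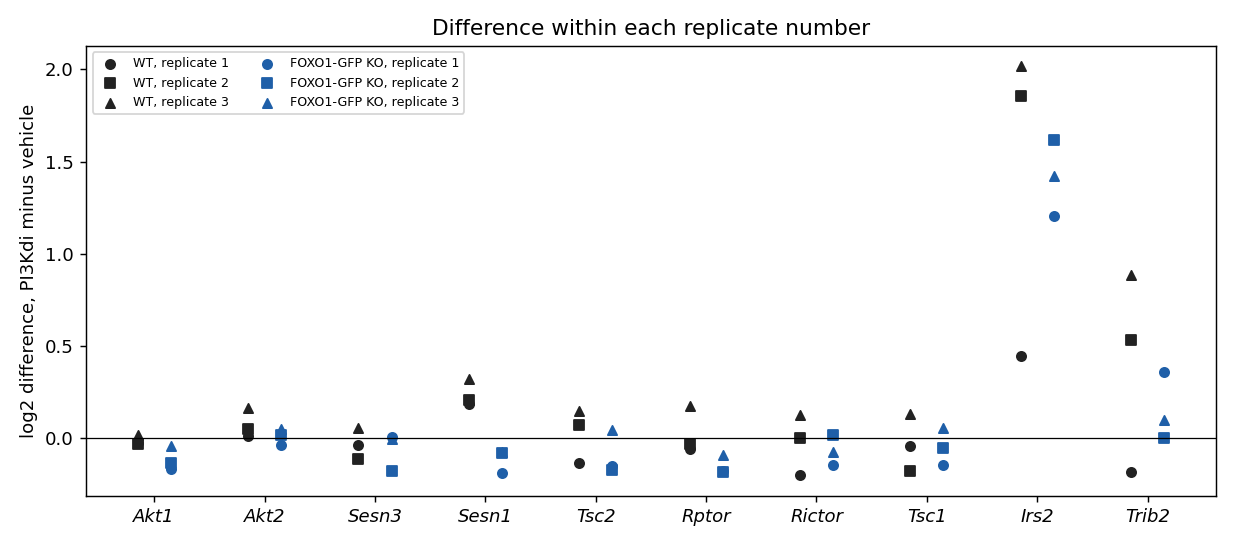
Log2 difference between the PI3Kdi and the vehicle library of each replicate number, by mRNA and genotype. Only Irs2 exceeds 1, in 5 of 6 pairs, and the 7 mRNA called in no comparison lie within 0.20 of 0.

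Across the 12 libraries, which share groups and replicate pairs, Rptor, Tsc1, Tsc2, Sesn3 and Akt2 varied together, with Pearson correlations of 0.75 to 0.92, and Trib2 and Sesn1 at 0.84. Among genes averaging 1 FPKM or more, those most like Irs2 over the 12 libraries were Gm17767 (0.93), Vps37b (0.92) and Fggy (0.92). For Trib2 they were Dhx40 (0.99), Serpinb1a (0.96) and Pea15a (0.95), and for Sesn1 Klrb1f (0.97), Ifi204 (0.96) and Cxcr6 (0.95). These correlations are descriptions.

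Of 65 other genes of AKT and mTOR signalling, 60 were in the table: kinases and phosphatases, mTOR complex subunits, amino acid and energy sensors, outputs, receptors and other Tribbles. In the plain fit 0 of 60 were called in any comparison. With the block, PI3Kdi raised 2 and lowered 1 in WT, raised 1 and lowered 0 in FOXO1-GFP KO, and 0 were called for genotype (background 0.233% without and 1.18% with PI3Kdi). Over all genes the block called 1.53% higher and 1.05% lower in WT and 1.82% higher and 0.964% lower in FOXO1-GFP KO. Counts of 1 or 2 of 60 are too few to set apart from that background. Prr5, which encodes the mTORC2 subunit Protor-1, was 5.96, 5.95 and 8.43 FPKM in WT vehicle libraries, 11.04, 10.96 and 15.74 in those of WT+PI3Kdi, 4.63, 7.15 and 5.39 for FOXO1-GFP KO vehicle, and 10.34, 17.16 and 12.27 for FOXO1-GFP KO+PI3Kdi. Vehicle and PI3Kdi libraries did not overlap in either genotype. Its log2 fold change was 0.88 in WT (adjusted p = 0.309; 0.000230 with the block) and 1.19 in FOXO1-GFP KO (adjusted p = 0.251; 5.69e-05 with the block). With the block only, Prr5 was thus called higher beside Irs2 in both genotypes, while Rictor, which encodes another mTORC2 subunit, differed by -0.02 and -0.07. Phlpp1, a phosphatase that removes an activating phosphate from AKT, was 1.33, 0.98 and 0.93 FPKM in WT vehicle libraries and 2.48, 1.73 and 1.90 in those of WT+PI3Kdi. It was 0.89, 0.92 and 0.86 FPKM for FOXO1-GFP KO vehicle and 1.26, 1.08 and 1.10 with PI3Kdi. Its log2 fold change was 0.86 in WT (adjusted p = 0.136; 0.000276 with the block). The FOXO1-GFP KO response was 0.33 (adjusted p = 0.0443 with the block), under the fold threshold, and the responses differed by -0.53 (adjusted p = 1; 0.142 with the block). With PI3Kdi the Phlpp1 groups of the 2 genotypes did not overlap, and the genotype difference was -0.76 (adjusted p = 0.0649; 0.0921 with the block), not called. Trib1, a Tribbles relative of Trib2, was 2.11, 1.96 and 1.16 FPKM in WT vehicle libraries and 1.12, 1.26 and 0.84 in those of WT+PI3Kdi, a log2 change with PI3Kdi of -0.63 (adjusted p = 0.960; 0.0142 with the block). It was 0.90, 0.74 and 0.51 FPKM for FOXO1-GFP KO vehicle and 0.85, 0.71 and 0.44 with PI3Kdi. For genotype without PI3Kdi its log2 fold change was -1.16 (adjusted p = 0.152), not called.

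**Figure D5:**
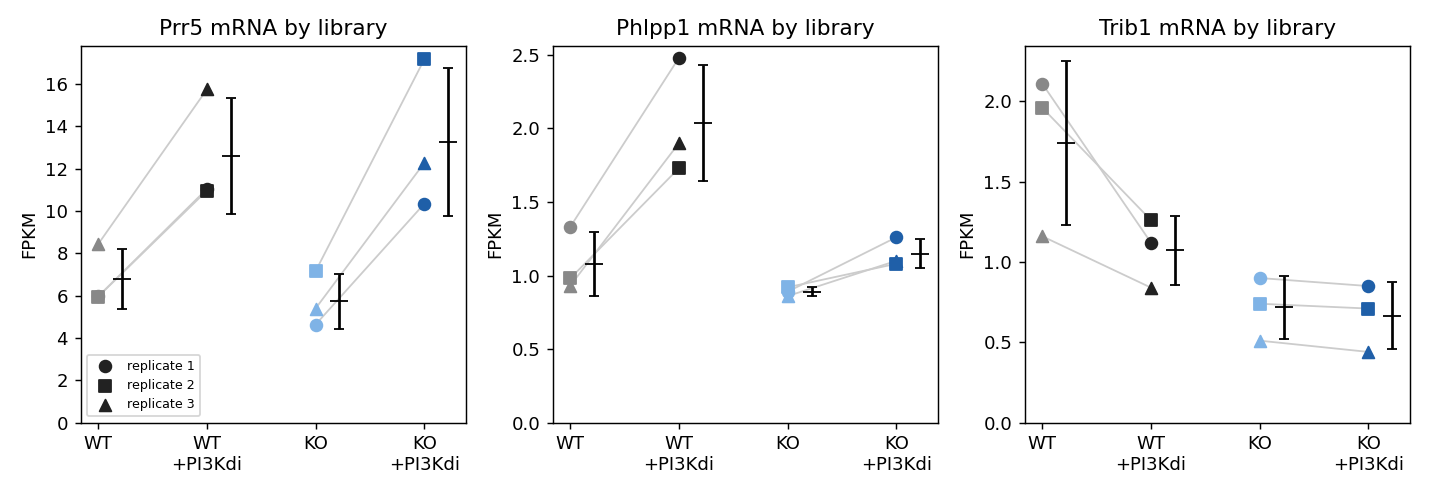
FPKM of Prr5, Phlpp1 and Trib1 in each library (KO, FOXO1-GFP KO); lines join equal replicate numbers within a genotype and black bars show the mean and SD of 3. Prr5 rises in all 6 pairs, Phlpp1 also goes up in all 6, and Trib1 goes down in all 6.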

How the data were processed

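RNA sequencing of 12 libraries (4 groups of 3) was analysed. The deposited values are FPKM: per the study's methods, the authors aligned reads with STAR 2.7.1a to GRCm38.p6, counted them per Ensembl gene, filtered low genes, scaled by TMM in edgeR and divided by summed exon length. The counting strand and the raw counts were not given in the sources used here. Values were rounded to 2 decimals, and genes below the authors' filter could not be tested. Here limma 3.58.1 in R 4.3.3 was fitted to log2(FPKM + 0.1) of all 12 libraries and 13283 genes, as 4 group means with empirical Bayes and a mean-variance trend, and was tested on simulated data. P-values were adjusted by Benjamini-Hochberg over all genes.

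The alternative with a replicate block within genotype used the replicate number as a random effect (consensus correlation 0.757). The labels call the samples biological replicates but do not give whether paired libraries share a mouse, so p-values measure the spread between these samples. Pairing was taken from the replicate numbers in the labels and from the correlation of deviations between same-numbered vehicle and PI3Kdi libraries, 0.596 to 0.838 in WT and 0.594 to 0.780 in FOXO1-GFP KO. Across genotypes it ran from -0.409 to 0.730, so no pairing was used there. Depth was recovered from genes of up to 400 bases, whose FPKM fall on whole reads, and 98.5 to 100% of held-out values were whole within 0.1 reads (20% by chance). Members, gene lists and tests were chosen with earlier results of these data known. All 10 members are named. Members called in either fit have full statistics and the 3 most similar genes. Pathway genes are named where called, and Igf1r and Sesn2 are named although called in no comparison. Gene positions came from GENCODE M21 and promoters from RefSeq (GRCm38.p6), with all 10 genes matched.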

Additional observations from a re-analysis of the deposited data

Results flagged for a closer look

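Sesn1 went up with PI3Kdi in all 3 WT pairs, by 0.18 to 0.32 on the log2 scale, and down in all 3 FOXO1-GFP KO pairs, by -0.19 to -0.07. The difference of the responses was -0.35 (SE 0.219, 95% confidence interval -0.83 to 0.13, limma adjusted p = 1). With the replicate block the unadjusted p was 0.00332 and the adjusted p 0.185, so the opposite directions did not pass the correction over all genes in either fit.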

How the results depend on the processing

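For PI3Kdi, 0 of the 10 mRNA were called in either genotype, and this became 1 in each with the replicate block, with the block as fixed terms, with voom and the block, and with the length trend removed and the block. Leaving out 1 library gave 0 to 2 in WT and 0 to 1 in FOXO1-GFP KO over both fits. For genotype without PI3Kdi, 1 became 0 with the block, with a pseudocount of 1 FPKM, with a minimum mean of 1 FPKM (which removes Irs2 and Trib2), in a fit of only the groups compared, and with voom or the length trend removed together with the block. It was 0 to 1 when 1 library was left out. For genotype with PI3Kdi, 2 became 1 with the minimum mean, with only the groups compared (Sesn1 lost) and with voom and the block (Trib2 lost, adjusted p = 0.0630), and 0 to 2 without 1 library. The block changed no other call of the 10 mRNA beyond those given, and no called value changed direction under any alternative run. The cause was not tested except where the setting removes an mRNA.

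A pseudocount of 1 FPKM reduced the Trib2 difference without PI3Kdi to -0.49, by construction, and voom with the block gave Irs2 1.86 in WT and 1.79 in FOXO1-GFP KO. Over all genes the block moved the calls for PI3Kdi from 13 to 342 in WT, from 6 to 370 in FOXO1-GFP KO, and for genotype from 44 to 31 without and from 193 to 157 with PI3Kdi. A fit of only the groups compared gave 0, 0, 0 and 94 in the same order, and a block on the number shared by all groups gave 77, 63, 165 and 438. Leaving out libraries with the block and removing the length trend were chosen after seeing the data. Low depth limits Irs2 and Trib2, which had under 30 reads in some libraries.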
